A study of Mus musculus with 40 samples.

Results

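Ribosomal protein genes were represented on the array by 9 of 5760 spots. Each of these spots was paired with a single gene symbol, in the platform annotation or by its current name, that belongs to a list of 9 ribosomal protein genes, and each gene had 1 spot. The large subunit contributed Rpl10l, Rpl15, Rpl19, Rpl22, Rpl27a, Rpl30, Rpl34 and Rpl36, and the small subunit contributed Rps3. The genes were described in 40 samples of 14 groups of mouse cells and tissues.

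Ribosomal proteins assemble with ribosomal RNA in the nucleolus into the small subunit, which decodes mRNA, and the large subunit, which joins amino acids. Their mRNAs are among the most abundant in growing cells. They typically begin with a run of pyrimidines at the 5′ end, through which the mTOR pathway and the RNA-binding protein Larp1 set their translation and stability. Ribosomal protein genes have many processed pseudogenes and some functional copies, so a spot can also bind transcripts of a close copy. Rpl10l is an intronless copy of Rpl10 known for its expression in testis, and as a close copy it may share signal with Rpl10 on this spot. The sequences were not compared here.

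The study compared fat cells, their precursors and other cell types on nylon filters, with 1 sample labelled with 33P per filter. Apart from the different preadipocyte lines, the labels do not state whether replicates are separate cultures or animals. The p-values therefore rest on a spread between samples that may be technical. The sources used here give no strain, age, genotype or sex, and the labels name no altered gene.

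The groups grown below confluence, called low-density lines here, were 4 preadipocyte lines (3T3-L1 with 2 samples, and 3T3-F442A, Ob1774 and Hgfu with 1 sample each), proliferating C2C12 myoblasts (3 samples), C3H-10T1/2 mesenchymal cells (3), Raw 264 (3) and J774 (2) macrophages, and embryonic stem (ES) cells of the line ZIN40 kept with the cytokine LIF (3). Differentiated cultures were 3T3-F442A cells taken to confluence and then given rosiglitazone, an agonist of the adipogenic receptor PPAR gamma, for 7 days (3), and C2C12 cells taken to confluence and then held in horse serum for 7 days to form myotubes (2). Plated primary cells were stroma-vascular cells of inguinal fat (3) and peritoneal macrophages (3), of which the adherent cells were taken after 24 h. Uncultured tissue cells were adipocytes freed from inguinal fat with collagenase (3), tibialis muscle (2) and liver (2). ZIN40 cells grown without LIF (3) were described but not tested. The source name of the proliferating C2C12 samples calls them preadipocytes, whereas their title, used here, does not.

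Levels are log2 of quantile-normalized spot intensity plus an offset of 36370, on which scale the median spot of each array is at 16.44 and the 99th percentile at 19.25. Folds given below are ratios of intensity plus this offset, not of intensity. Differences and folds on this scale therefore understate the change of every spot, and most that of dim spots. Levels of different spots are not compared with each other. A spot was called when its limma p-value, adjusted by Benjamini-Hochberg over all 5760 spots, was under 0.05. Array medians before scaling ranged from 18870 to 132228 in 37 arrays, and samples of a group correlated over all spots with r from 0.72 to 0.96. All 5 liver markers measured were highest in liver, but Ttr was nearly level, at 16.682 there and 16.677 in C2C12 myotubes. Of 7 skeletal muscle markers, 6 were highest in tibialis muscle and the seventh, Tnnc1, in myotubes. Of 5 macrophage markers, 4 were highest in peritoneal macrophages or Raw 264, and Vav1 was highest in ES cells with LIF. Of 5 adipocyte markers, 4 were highest in inguinal or 3T3-F442A adipocytes, and Cidec was highest in tibialis muscle. No pluripotency marker was measured. The 3 arrays of ES cells without LIF stand apart, with a 99th percentile of 60.0 to 391 times the median against 3.87 to 17.5 times on the other 37.

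RefSeq promoter windows (GRCm38.p6) were matched for 7 of the 9 genes, Rpl10l, Rpl15, Rpl19, Rpl22, Rpl27a, Rpl34 and Rps3, with 10 windows in all because some genes have several listed starts. The stretches below are shown because they hold a pyrimidine run near a listed start, and in 3 of the 5 genes the run spans that start. A run was counted as at least 10 bases of only C or T in a row, on the strand of the gene, within 50 bases of a listed start, and capitals mark it. This minimum length was chosen after the windows of these genes had been looked at.
Rpl15 (chr14:18270967-18270996, minus strand): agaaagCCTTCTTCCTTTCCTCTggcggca
Rpl27a (chr7:109519186-109519215, plus strand): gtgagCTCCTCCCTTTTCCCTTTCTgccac
Rpl34 (chr3:130730330-130730359, minus strand): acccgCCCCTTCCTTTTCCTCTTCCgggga
Rpl19 (chr11:98026947-98026973, plus strand): gcccacaagCTCTTTCCTTTCgctgct
Rpl22 (chr4:152325679-152325708, plus strand): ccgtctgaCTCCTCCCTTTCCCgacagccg

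The run was 17 bases long in Rpl15, 20 in Rpl27a, 20 in Rpl34, 12 in Rpl19 and 14 in Rpl22. It spanned a listed start in Rpl15, Rpl27a and Rpl34. In Rpl19 it lay after the start and in Rpl22 before it, so neither of these runs is at the 5′ end of the listed transcript. Rpl19, Rpl22 and Rpl34 each had another listed start with no such run near it. In all, 5 of the 10 windows held such a run, against 19.7% of 32851 windows of all genes. On the opposite strand 1 of the 10 windows held it, against 20.7% of all windows. No such run was found in the windows of Rpl10l and Rps3, which says only that these letters are not there.

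Among 13 groups (ES cells without LIF left out), the level of 4 of the 9 genes differed by limma's moderated F test, at 10.9% of all spots. These were Rpl15 (adjusted p = 6.26e-06), Rpl27a (4.07e-05), Rps3 (2.04e-04) and Rpl30 (1.15e-03). The others did not pass, with adjusted p of 0.0517 for Rpl10l, 0.0684 for Rpl34, 0.0956 for Rpl19, 0.23 for Rpl22 and 0.263 for Rpl36. Group means spanned 2.53 on the log2 scale for Rps3, 2.40 for Rpl27a, 2.17 for Rpl15 and 1.83 for Rpl30, but 0.67 for Rpl36 and 0.32 for Rpl22.

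**Figure D1:**
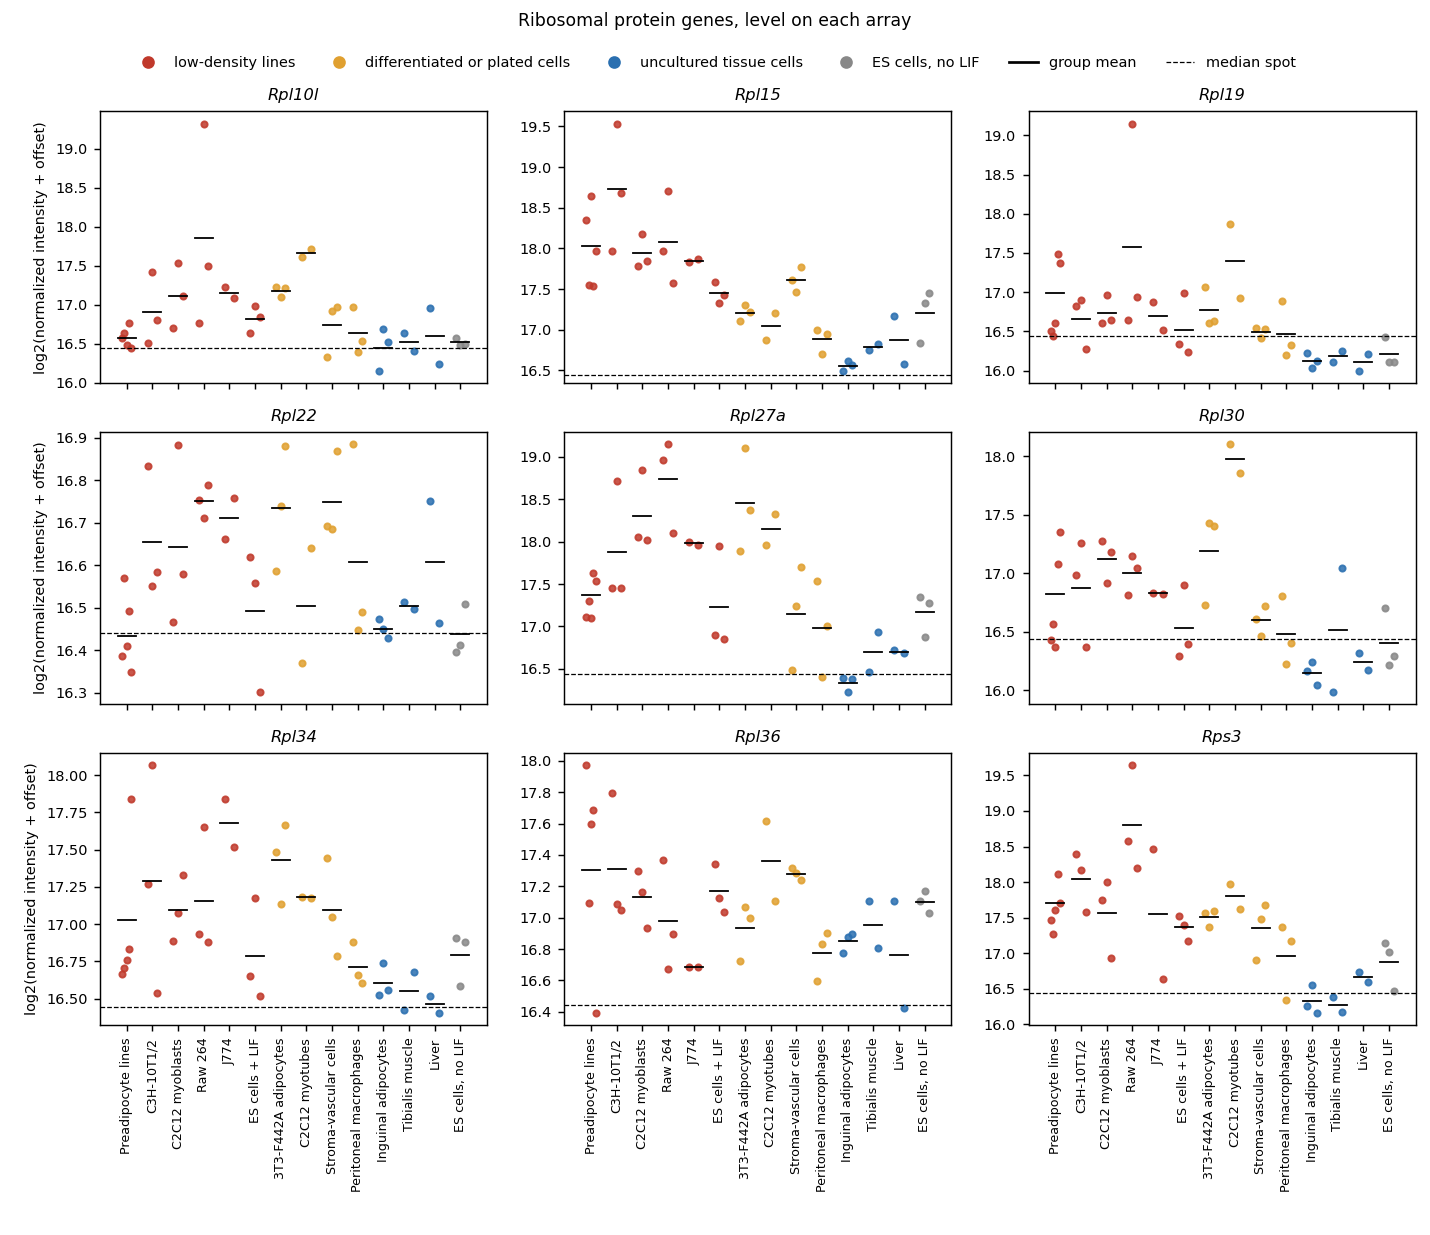
Log2 normalized intensity (vertical axis, own scale per gene) of each of the 9 genes on each array, by sample group (horizontal axis). Points are arrays, short bars are group means and the dashed line is the median spot at 16.44. Inguinal adipocytes have the lowest mean of the 13 tested groups for Rpl10l, Rpl15, Rpl27a and Rpl30, and Raw 264 sample 2 is far above the other Raw 264 samples for Rpl10l and Rpl19.

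The lowest of the 13 group means was in an uncultured tissue for 7 of the 9 genes. It was in inguinal adipocytes for Rpl10l, Rpl15, Rpl27a and Rpl30, in liver for Rpl19 and Rpl34, and in tibialis muscle for Rps3. The exceptions were Rpl22, lowest in the preadipocyte lines, and Rpl36, lowest in J774. The share of all spots with their lowest mean in a tissue is not given. Raw 264 had the highest mean for Rpl10l, Rpl19, Rpl22, Rpl27a and Rps3, C3H-10T1/2 for Rpl15, J774 for Rpl34, and C2C12 myotubes for Rpl30 and Rpl36.

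Most neighbours in these orders overlapped. Of 12 neighbouring pairs of groups per gene, the samples were apart in 3 pairs for Rpl15, in 1 pair each for Rpl10l, Rpl27a, Rpl30 and Rps3, and in 0 for Rpl19, Rpl22, Rpl34 and Rpl36. How often neighbours were apart over all spots is not given. For Rpl15 the gaps lay between J774 and stroma-vascular cells, between ES cells with LIF and 3T3-F442A adipocytes, and between tibialis muscle and inguinal adipocytes. For Rpl30 the gap lay below the myotubes, at 17.86 and 18.10, and for Rpl27a and Rps3 it lay among the tissues. The top place of Raw 264 for Rpl10l and Rpl19 rests on sample 2, with Rpl10l at 16.77, 19.32 and 17.49 and Rpl19 at 16.64, 19.15 and 16.93 in samples 1, 2 and 3.

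The low-density lines were compared with the uncultured tissue cells, as the mean of 6 groups (19 arrays) minus the mean of 3 groups (7 arrays). Ribosomal protein genes were higher in the lines: 6 of 9 were called higher and 0 lower, when 10.8% of all spots were called and 5.47% were called higher. The median difference of the 9 genes was 0.63, against -0.01 for all spots. All 9 values were above 0, except that Rpl22 was below 0 without scaling of the arrays, and 45.5% of all spots were above 0. Without scaling 1 gene, Rps3, was called, and with median scaling 6. In these bulk samples, fewer cells of a type and less RNA per cell cannot be told apart.

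Rps3, the small-subunit protein at the channel where mRNA enters the ribosome, had the largest difference of the 9. On the tissue arrays its level was 16.26, 16.55 and 16.17 in inguinal adipocytes, 16.39 and 16.17 in tibialis muscle, and 16.74 and 16.60 in liver. On the 19 line arrays it ranged from 16.64 to 19.64 with a median of 17.71. Of the line arrays, 18 were above every tissue array, and the exception was J774 sample 2 at 16.64 against 18.47 in sample 1. The difference was 1.41 ± 0.19 (SE; 2.67-fold, adjusted p = 3.64e-06). It was called in each of 21 other settings and 26 fits that left out a sample.

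Rpl15, a large-subunit protein, a gene mutated in some cases of human Diamond-Blackfan anaemia, was the only member without overlap. The tissue arrays read 16.49, 16.61 and 16.56 in adipocytes, 16.76 and 16.82 in muscle, and 17.17 and 16.58 in liver. The lines ranged from 17.33 to 19.53 with a median of 17.86, so all 19 were above all 7, which held for 0.278% of all spots and 0.208% in this direction. The difference was 1.27 ± 0.15 (SE; 2.41-fold, adjusted p = 2.52e-07), and it was called in 20 of 21 other settings. C3H-10T1/2 was highest, at 17.97, 19.53 and 18.68.

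Rpl27a, a large-subunit protein, was 1.34 ± 0.19 (SE) higher in the lines (2.52-fold, adjusted p = 8.89e-06). Adipocytes read 16.39, 16.23 and 16.38, muscle 16.46 and 16.93, and liver 16.72 and 16.69, while the lines ranged from 16.85 to 19.14 with a median of 17.94. The lines that overlapped the tissues were 2 arrays of ES cells with LIF, at 16.90 and 16.85. The remaining 17 line arrays were above every tissue array.

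Rpl19, Rpl34 and Rpl30 were called with smaller differences. Rpl19, part of a bridge between the subunits, was 0.73 ± 0.20 (SE) higher in the lines (adjusted p = 0.0165). All 7 tissue arrays had Rpl19 at or below the median spot, at 16.23, 16.03 and 16.12 in adipocytes, 16.11 and 16.26 in muscle, and 16.00 and 16.22 in liver. Its rank on those arrays was between the 1.30th and 22.6th percentile of spots, against 19.9 to 98.5 with a median of 73.0 in the lines, and 18 of 19 line arrays were above every tissue array.

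Rpl34 was 0.63 ± 0.15 (SE) higher (adjusted p = 0.00476), with tissues from 16.41 to 16.74 and lines from 16.52 to 18.07, so 14 line arrays were above every tissue array. Rpl30, which also binds selenoprotein mRNAs, was 0.56 ± 0.14 (SE) higher (adjusted p = 0.00544). The tissue range of Rpl30 was 15.99 to 17.05 and that of the lines 16.29 to 17.35, and 6 line arrays were above all tissues because tibialis muscle sample 2 was at 17.05. Tibialis sample 1 was at 15.99, and without it the Rpl30 difference was 0.38 (adjusted p = 0.101) and that of Rpl19 0.70 (0.0622), which left 4 genes called. With 4 times the offset Rpl19 was not called either. Rpl19 was also not called without the Raw 264 group (0.58, adjusted p = 0.0809), and neither Rpl19 (0.72, 0.0827) nor Rpl30 (0.48, 0.0821) was called without inguinal adipocytes. These group omissions were chosen after seeing the data.

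The other 3 genes did not pass. Rpl10l differed by 0.55 ± 0.19 (SE, adjusted p = 0.0569), with tissues from 16.15 to 16.96 and lines from 16.44 to 19.32. Rpl36 differed by 0.24 ± 0.13 (SE, 95% confidence interval -0.02 to 0.50, adjusted p = 0.272). Rpl22, which mice can lack with little effect on global translation and which is needed for the development of most T cells, differed by 0.09 ± 0.07 (SE, interval -0.04 to 0.23, adjusted p = 0.447), with tissues from 16.43 to 16.75 inside the range of the lines, 16.30 to 16.88.

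**Figure D2:**
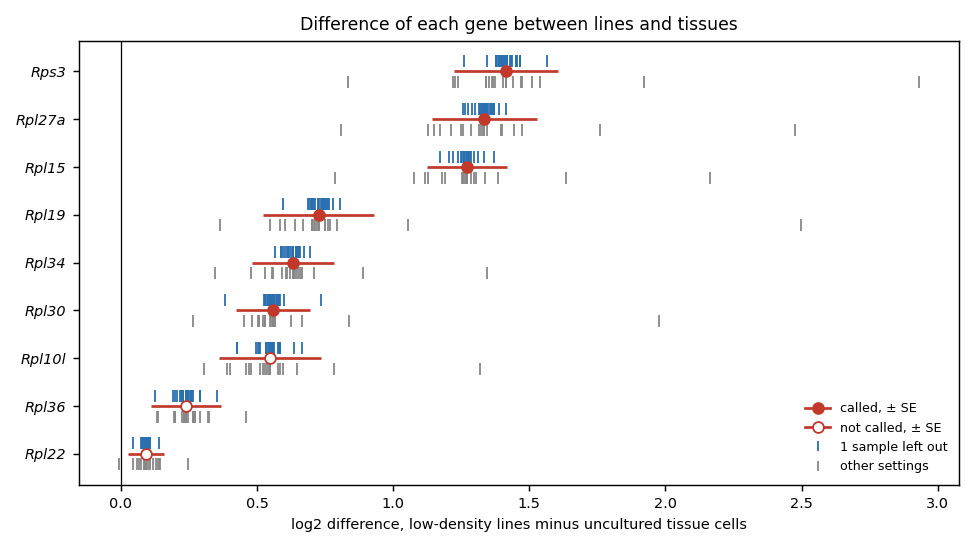
Difference in log2 level, low-density lines minus uncultured tissue cells (horizontal axis), for each gene (vertical axis). Circles are the estimates with their SE, filled where called, and ticks are the values with 1 sample left out (blue) or under another setting (grey). Rps3, Rpl27a and Rpl15 lie at 1.41, 1.34 and 1.27, and Rpl22 lies at 0.09.

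Markers of other cell types moved in the same comparison. Of the erythroid list, 1 gene was measured, the beta globin Hbb-b1, and it was lower in the lines by 0.96 ± 0.15 (SE, adjusted p = 2.09e-05). It ranged from 16.07 to 16.76 on the line arrays and from 16.71 to 19.11 on the tissue arrays. Of 8 cell cycle genes measured, the kinesin Kif20a was called higher in the lines (0.39 ± 0.08, adjusted p = 9.27e-04) and the proliferation antigen Mki67 lower (-0.36 ± 0.08, adjusted p = 0.00168), with a list median of 0.05. The fibroblast and matrix list had 1 gene measured, the protease inhibitor Timp2, which was higher in the lines by 1.05 ± 0.18 (SE, adjusted p = 6.75e-05), at 16.24 to 18.92 on the line arrays and 16.10 to 16.53 on the tissue arrays. Markers of the tissues themselves were called lower in the lines, with 5 of 7 for skeletal muscle, 4 of 5 for liver and 3 of 5 for adipocytes. The mean level of each list ranged in lines and tissues from 16.29 to 16.75 and 16.53 to 18.41 for skeletal muscle, from 16.22 to 16.58 and 16.62 to 18.98 for liver, and from 16.63 to 16.91 and 16.73 to 17.47 for adipocytes. None was called for 5 macrophage, 2 lymphocyte and 1 endothelial marker. Median array intensity before scaling was 20350 to 132228 in the lines and 18870 to 130888 in the tissues. The part of these values in the ribosomal protein differences was not tested.

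In fat, adherent stroma-vascular cells were set against adipocytes of the same depot. By the fit without pairing, limma called 0 of 9 genes (0.625% of spots were called), 4 genes had an unadjusted p under 0.05, and the samples of 8 genes did not overlap, against 20% of all spots and 9.17% in this direction. The share of all spots with an unadjusted p under 0.05 is not given, here or below. Counts of genes at that threshold therefore cannot be set against the general rate. All 9 values were above 0, with a median of 0.45 against -0.02 for all spots, also with median scaling and without scaling. In the main fit 45.6% of all spots were above 0. Same-numbered samples deviated together in these groups, and with the replicate number as a block 5 genes were called higher, at 4.01% of all spots called. They were Rpl15 (1.06 ± 0.10, SE, adjusted p = 5.84e-04), Rps3 (1.03 ± 0.15, 0.00487), Rpl36 (0.43 ± 0.09, 0.0292), Rpl19 (0.37 ± 0.08, 0.0448) and Rpl30 (0.45 ± 0.10, 0.0484). The SE of every gene was smaller in the block fit, at 0.08 to 0.19 against 0.12 to 0.37 without pairing. The block fit held only the compared groups, whereas the main fit shared its spread over all 14 groups. Without a block, a fit of only the compared groups also called more genes than the main fit, as given below. How much of the smaller SE came from pairing was not tested. Rpl36 read 17.32, 17.28 and 17.24 in stroma-vascular cells and 16.78, 16.88 and 16.90 in adipocytes, so the groups were apart by more than either spread. Of 5 adipocyte markers, Pnpla2 (-0.63 ± 0.11) and Retn (-0.89 ± 0.15) were called lower in stroma-vascular cells, and their part was not tested.

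Inguinal adipocytes were compared with 3T3-F442A adipocytes made in culture, and 2 genes were called lower in the tissue cells (2.47% of spots called, 1.22% lower). Rpl27a read 17.89, 19.10 and 18.38 in culture against 16.39, 16.23 and 16.38 in tissue, a difference of -2.12 ± 0.34 (SE; 4.35-fold, adjusted p = 6.37e-04). Rpl30 read 16.73, 17.43 and 17.40 against 16.16, 16.24 and 16.05, a difference of -1.03 ± 0.24 (SE; 2.05-fold, adjusted p = 0.0198). For both genes every cultured sample was above every tissue sample.

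The other 7 values were also below 0, under median scaling and without scaling too, and in the main fit 47.3% of all spots were below 0. The samples of 8 genes had no overlap, against 28.2% of all spots and 12.5% in this direction. Rps3 (-1.19, adjusted p = 0.0566) and Rpl34 (-0.82, 0.0897) came nearest to the threshold. The Rpl30 call was lost without 3T3-F442A sample 2 (-0.91, adjusted p = 0.135) or 3 (-0.93, 0.101) and without adipocyte sample 1 (-1.04, 0.0704) or 3 (-0.98, 0.0659), which left 1 gene called. Without scaling neither gene was called.

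Other markers differed between these adipocytes too. Timp2 was lower in tissue (-1.87 ± 0.32, SE, adjusted p = 7.36e-04), at 16.23 to 16.53 against 17.91 to 18.87 in culture. The B cell receptor gene Cd79b was higher in tissue by 0.79 ± 0.21 (adjusted p = 0.0359) and was the 1 of 2 lymphocyte markers called. Of 5 adipocyte markers, Retn was called higher in tissue (0.94 ± 0.15) and Lpl (-0.69 ± 0.17) and Plin5 (-0.98 ± 0.18) lower. The translation genes called were Utp4, needed for ribosome assembly (-0.55 ± 0.15, adjusted p = 0.0361), and the cap-binding protein gene Eif4e2 (-0.50 ± 0.14, 0.0435). Their part in the values of Rpl27a and Rpl30 was not tested.

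Differentiation of fat cells in culture gave 0 calls (0.156% of spots called), with 3 genes at an unadjusted p under 0.05. The samples of Rpl10l, Rpl15, Rpl22 and Rpl27a did not overlap, which held for 5.43% of all spots. Rpl27a read 17.11 and 17.29 in 3T3-L1, 17.10 in 3T3-F442A, 17.63 in Ob1774 and 17.54 in Hgfu, all below the adipocyte samples, with a difference of 1.09 ± 0.32 (SE, adjusted p = 0.179). Rpl15 lay the other way, at 17.10, 17.30 and 17.21 in adipocytes against 17.53 to 18.65 in the lines (-0.82 ± 0.25, adjusted p = 0.19). With array weights limma called these 2 genes. Stroma-vascular cells minus preadipocyte lines gave 0 calls (0.191% of spots called, 1 gene at an unadjusted p under 0.05), with differences from -0.49 for Rpl19 to 0.32 for Rpl22. Rpl22 was the member without overlap, at 16.69, 16.69 and 16.87 in stroma-vascular cells against 16.35 to 16.57 in the lines, and 5.28% of all spots had no overlap.

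In muscle, tibialis tissue was compared with C2C12 myotubes, and 1 gene was called lower in tissue (0.92% of spots called, 0.208% lower). Rpl30 read 18.10 and 17.86 in myotubes and 15.99 and 17.05 in tibialis muscle, a difference of -1.46 ± 0.30 (SE; 2.75-fold, adjusted p = 0.00736). Both tissue samples were below both cultures, but the tissue samples differed from each other by more than the myotubes did. The call was lost without myotube sample 1 (-1.34, adjusted p = 0.183) or tibialis sample 1 (-0.93, 0.367), and with median scaling (-1.25, 0.36), no scaling (-0.34, 0.53), background subtraction (-3.32, 0.0707) or only the compared groups (-1.46, 0.312).

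Of the 9 genes, 8 were below 0 in tibialis muscle against myotubes, as were 49.6% of all spots. The samples of 8 genes had no overlap, against 40.5% of all spots and 18.5% in this direction. Rps3 differed by -1.52 ± 0.42 (SE, adjusted p = 0.0742) and Rpl27a by -1.45 ± 0.42 (0.105), while Rpl22 differed by 0.00 ± 0.14. Without scaling 3 of the 9 values were below 0, when the median of all spots moved to 1.08. Of 7 skeletal muscle markers, 3 were called higher and 1 lower in tibialis muscle than in myotubes, and their part was not tested. Myotubes minus myoblasts gave 0 calls (0.226% of spots called, 2 genes at an unadjusted p under 0.05). Rpl15 read 16.87 and 17.21 in myotubes against 17.79, 18.18 and 17.84 in myoblasts (adjusted p = 0.265), and Rpl30 18.10 and 17.86 against 17.27, 16.91 and 17.18 (adjusted p = 0.252). The groups did not overlap for these genes and for Rpl10l, as for 21.6% of all spots.

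The change on differentiation was not called different between the fat and the muscle course for any of the 9 genes (0.26% of spots called). Neither was the difference between tissue and culture (0.278% of spots called). At an unadjusted p under 0.05 there were 2 genes for the former and 0 for the latter.

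Among macrophages, 3 genes were called lower in peritoneal cells than in the mean of Raw 264 and J774 (2.9% of spots called, 1.27% lower). Rpl15 read 16.99, 16.70 and 16.94 in peritoneal macrophages, 17.97, 18.70 and 17.57 in Raw 264, and 17.83 and 17.86 in J774 (-1.08 ± 0.24, SE, adjusted p = 0.00729). Rpl27a was at 16.98 ± 0.57 (SD, n = 3) in peritoneal macrophages, between 16.41 and 17.54, and at 18.73 ± 0.56 (n = 3) in Raw 264 and 17.98 ± 0.02 (n = 2) in J774 (-1.37 ± 0.31, adjusted p = 0.00938). The peritoneal samples were below all line samples for both genes and for Rpl30, and 11% of all spots had no overlap, 4.69% in this direction.

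Rps3 read 17.37, 16.34 and 17.17 in peritoneal macrophages, 18.57, 19.64 and 18.20 in Raw 264, and 18.47 and 16.64 in J774 (-1.22 ± 0.31, SE, adjusted p = 0.0235). J774 sample 2 was below 2 of the 3 peritoneal samples. All 9 values were below 0 with quantile and median scaling, and 7 without scaling. With quantile scaling 50.1% of all spots were below 0. Of 5 macrophage markers 3 were called higher in the peritoneal cells, Cybb, Itgb2 and Mpeg1, and their part was not tested.

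These calls rest on few arrays. Without peritoneal sample 2 no gene was called, with Rpl15 at -0.995 (adjusted p = 0.0803), Rpl27a at -1.08 (0.151) and Rps3 at -0.91 (0.275). Without peritoneal sample 3 (Rpl27a -1.38, 0.0503; Rps3 -1.33, 0.0548) or J774 sample 1 (Rpl27a -1.36, 0.0526; Rps3 -0.76, 0.319) only Rpl15 was called, and without Raw 264 sample 2 Rps3 was not (-1.01, 0.0601). With median scaling none of Rpl15 (-0.92, adjusted p = 0.0683), Rpl27a (-0.998, 0.352) and Rps3 (-0.85, 0.438) was called. Rps3 was also not called with background subtraction or with only the compared groups.

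ES cells with LIF minus C3H-10T1/2 gave 1 call, lower in the stem cells (0.208% of spots called, 0.174% lower). Rpl15 read 17.59, 17.33 and 17.42 in the stem cells and 17.97, 19.53 and 18.68 in C3H-10T1/2, without overlap (-1.28 ± 0.27, SE, adjusted p = 0.0238). Rps3 was the other member without overlap, which held for 7.33% of all spots. Same-numbered samples deviated together in these groups. With the replicate number as a block Rpl15 was not called (adjusted p = 0.147) and Rpl27a was (-0.64 ± 0.09, adjusted p = 0.0254), at 0.451% of all spots called. This block fit held only the compared groups. The Rpl15 call was also lost without C3H-10T1/2 sample 2 (-0.88, adjusted p = 0.421) and without ES sample 1 (-1.36, 0.0536), 2 (-1.22, 0.135) or 3 (-1.27, 0.0927). It was lost with median scaling (-0.52), background subtraction or only the compared groups as well, and without scaling the difference turned to 0.18.

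Liver minus tibialis muscle gave 0 calls (1.88% of spots called) and 0 genes at an unadjusted p under 0.05. Differences ran from -0.27 ± 0.30 (SE) for Rpl30 to 0.39 ± 0.42 for Rps3, the only member without overlap, as were 45.6% of all spots. The comparisons above share samples with that of lines and tissues and with each other, so their values are not independent.

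**Figure D3:**
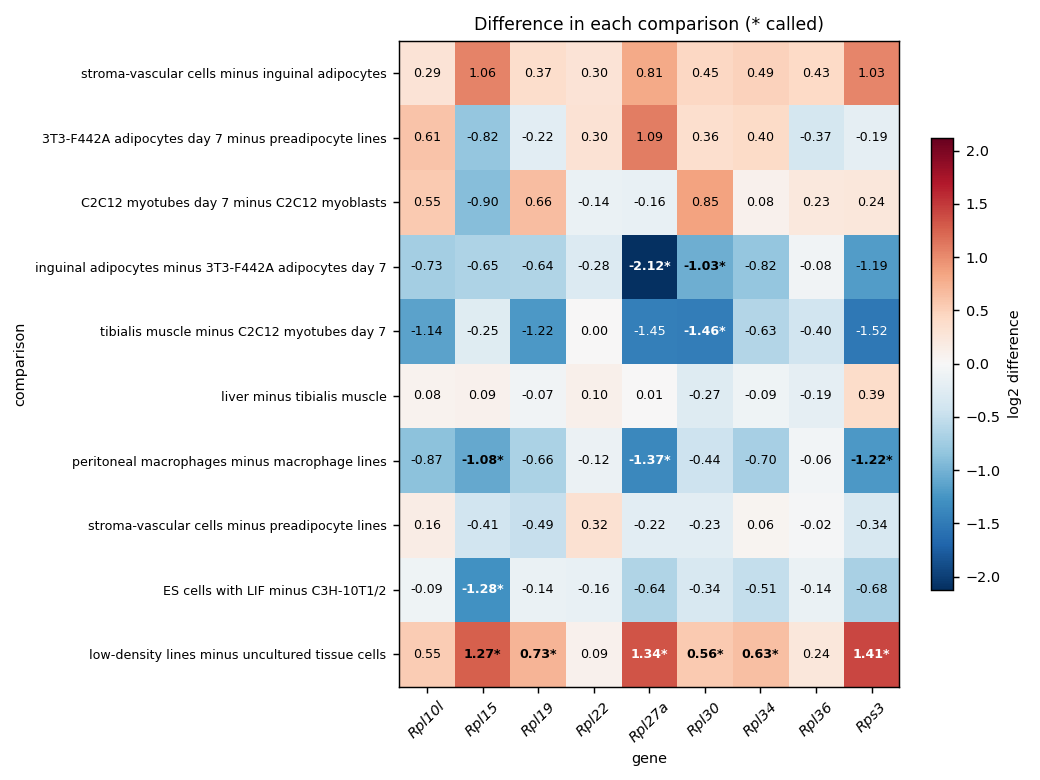
Difference in log2 level for each gene (horizontal axis) in each of 10 comparisons (vertical axis), red above and blue below 0, with the value printed and an asterisk where called. Tissue cells and peritoneal macrophages against cultured counterparts are mostly blue, down to -2.12 for Rpl27a in inguinal adipocytes.

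Levels of the 9 genes were mostly positively correlated across the 13 group means. Over the 36 pairs of genes the median Pearson r was 0.58, with 21 pairs above 0.5 and 1 below 0, and over all pairs of spots it was -0.00. The closest pair was Rps3 and Rpl19 at 0.89, and the most distant Rpl22 and Rpl36 at -0.20. Rpl27a had the highest median r with the other members, 0.79, followed by Rps3 at 0.74, Rpl10l at 0.70 and Rpl19 at 0.70, and Rpl36 had the lowest at 0.34. The genes share the same arrays and normalization, so these values are descriptions. The spots of Rpl19, Rpl30, Rps3 and Rpl27a lie close in spot order, at numbers 1623, 1637, 1649 and 1710 of 5760. Raw 264 sample 2, at 19.32 for Rpl10l and 19.15 for Rpl19, enters the group means. The part of spot order and of this array in the r values was not tested.

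**Figure D4:**
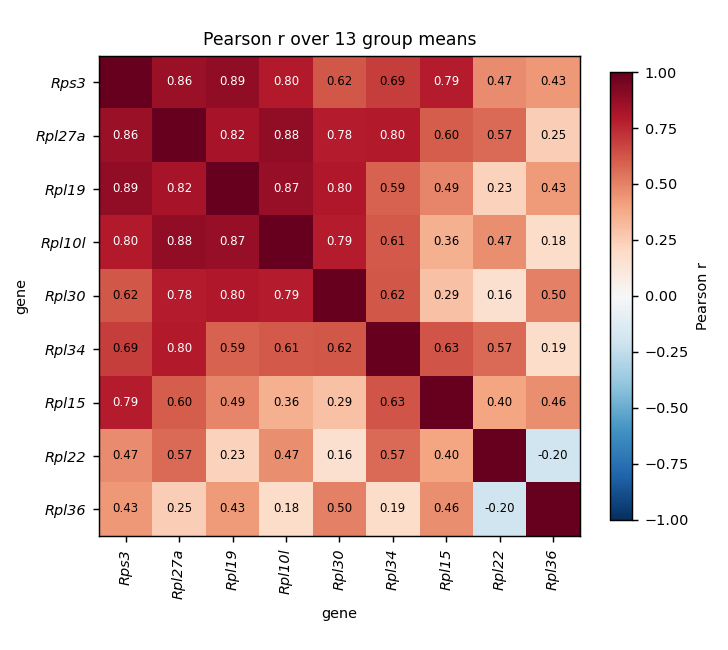
Pearson r between each pair of the 9 genes over 13 group means, with genes on both axes and the value printed in each cell. Rps3, Rpl27a, Rpl19, Rpl10l and Rpl30 form a block from 0.62 to 0.89, and Rpl22 and Rpl36 are paler, down to -0.20.

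The mean profile of the 9 genes, each centred and scaled over 13 groups, was compared with the named spots of other genes. The most alike were Lgals2 (r = 0.90), Tsc2 (0.90), Fau (0.89), Fbxo2 (0.86) and Polr2g (0.86). Fau encodes a fusion protein that is cut to release ribosomal protein S30, Tsc2 encodes a subunit of a complex that restrains mTOR, and Polr2g a subunit of RNA polymerase II. For single members the nearest were 4930545H06Rik (0.90) for Rpl10l, Psat1 (0.94) and Rbx1 (0.94) for Rpl15, Pde6d (0.93) for Rpl30, Lgals2 (0.91) for Rpl19, Copz2 (0.90) for Rpl27a, Haus5 (0.88) for Rpl34, Snrpa (0.87) for Rps3, Gsdmd (0.82) for Rpl22, and Tmsb10 (0.79) for Rpl36. With Spearman correlation 3 of the 5 genes nearest to the mean profile were among the leading 5.

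Fau was the 1 measured gene of a list of other cytosolic ribosomal proteins. It was called higher in the lines than in tissues by 0.82 ± 0.15 (SE, adjusted p = 1.90e-04). Its level ranged from 17.01 to 18.34 with a median of 17.42 on the 19 line arrays, and from 16.47 to 17.21 with a median of 16.57 on the 7 tissue arrays. The ranges overlapped through 1 liver sample at 17.21. Fau differed by -0.86 in inguinal adipocytes minus 3T3-F442A adipocytes (adjusted p = 0.0698) and by -1.21 in tibialis muscle minus myotubes (0.0586).

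Other genes of translation were read in the same comparison of lines with tissues. Of 14 translation factors, 3 were called higher and 0 lower, with a median of -0.02. They were Eif3l (0.37 ± 0.11, SE) and Eif3m (0.25 ± 0.08), both subunits of the initiation factor that recruits the small subunit, and the termination factor Gspt1 (0.35 ± 0.08). Of 24 genes of ribosome biogenesis, 3 were called higher and 1 lower, with a median of 0.04. Mybbp1a, a nucleolar protein that binds Myb, had the largest called difference of this list at 0.64 ± 0.13, Utp4 and Ddx18 were also higher, and Nol12 was lower. Of 9 mitochondrial ribosomal proteins 0 were called, with a median of 0.06. The median of the cytosolic ribosomal protein genes was 0.63, and the difference between lists was not tested.

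**Figure D5:**
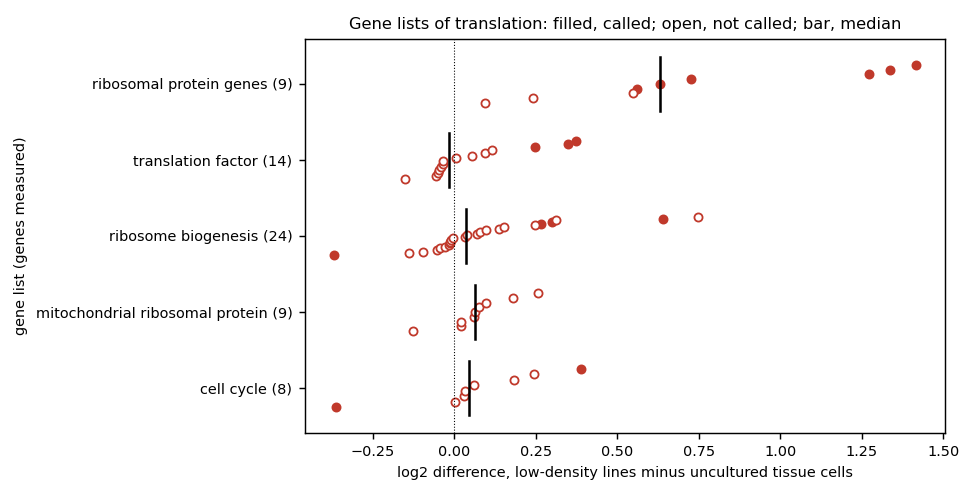
Difference in log2 level, low-density lines minus uncultured tissue cells (horizontal axis), for the genes of each list (vertical axis, number of genes measured in brackets). Filled points were called, open points were not, and bars are list medians, at 0.63 for the ribosomal protein genes and between -0.02 and 0.06 for the others.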

How the data were processed

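The deposited values are linear spot intensities, 1 per spot and array, that the authors quantified with Imagene software, per the labels' protocols, from Resgen filters hybridized with labelled cDNA of DNase-treated RNA. The sources used here do not give the software version, background correction or scaling. Depth is not defined for arrays; their number limits the precision.

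Quantile normalization over 40 arrays was followed by log2(value + 36370), an offset equal to the 10th percentile. The 2 samples of 3T3-L1 were averaged. All 14 groups (39 columns) entered 1 limma 3.58.1 fit in R 4.3.3 (lmFit, contrasts.fit, eBayes; 25 residual degrees of freedom), two-sided, with no filter on low values. The fit was tested on simulated data. Python 3.11.15 with matplotlib 3.10.9 drew the figures. No arrays held identical values.

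All 9 genes were examined in each comparison, and the text names those called, nearest to the threshold or at the ends of the range. Genes outside the list were taken where called in the gene lists or alike in profile (3 per gene, of which the text gives 1 or 2, and 5 for the mean profile). The members, lists and tests were chosen with earlier results of these data known. Spot symbols come from the platform annotation, updated through GRCm38.p6 gene identifiers, which matched 3346 of 3420 spots with a single symbol.

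Replicate numbers in the titles were taken to pair samples where, with 3 pairs, each pair's deviations correlated above 0.1 over all spots. This held for stroma-vascular cells and inguinal adipocytes (r = 0.26, 0.10 and 0.39 for numbers 1, 2 and 3) and for ES cells with LIF and C3H-10T1/2 (0.39, 0.63 and 0.61). Alternatives were other scalings and offsets, a floor, background subtraction, removal of a local trend, array weights, other variance models, other sample sets, a replicate block, and leaving out each sample.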

Additional observations from a re-analysis of the deposited data

Results flagged for a closer look

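Within the preadipocyte lines, with the 2 samples of 3T3-L1 averaged, the Hgfu sample lay far from the other 3 lines for Rpl34 and for Rpl36. For Rpl34 it was high, at 17.84, and its gap to the nearest line was 0.875 of the whole range of the group. For Rpl36 it was low, at 16.39, with a gap of 0.881 of the range. Chance puts about 1 in 20 groups of this size past the limit used. How many groups and genes were screened with this limit is not given, so flags that arise by chance are to be expected among them. Hgfu has 1 array, so line and array cannot be told apart.

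For Rpl22 every adipocyte sample of 3T3-F442A lay above the mean of the preadipocyte lines and every myotube sample below the mean of the myoblasts, and for Rps3 the reverse held. Myotube sample 2 was nearly level for Rpl22, at 16.640 against a myoblast mean of 16.643 and myoblast samples from 16.47 to 16.88. The change in fat minus the change in muscle was 0.441 for Rpl22 and -0.428 for Rps3. Tested as an interaction in limma, it was not called for either gene (adjusted p = 0.379 and 0.84).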

How the results depend on the processing

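For lines minus tissues the count of 6 called genes became 1 without scaling, stayed within 1.5 times in 20 of 21 other settings, and ranged from 4 to 7 with each sample left out. For the F test, 4 became 0 without scaling, 7 with a floor in place of the offset and 9 with array weights, and 4 to 6 with a sample left out. For stroma-vascular cells minus adipocytes, 0 became 1 with median scaling, the floor, background subtraction, bright spots only or without the arrays of ES cells without LIF, 3 with only the compared groups, and 5 with array weights. For adipocytes minus 3T3-F442A adipocytes, 2 became 0 without scaling, 4 with a local trend removed, 7 with array weights, and 7 with only the compared groups (1 to 2 with a sample left out). For tibialis muscle minus myotubes, 1 became 0 with median or no scaling and 2 with the floor or only the compared groups (0 to 1). For peritoneal macrophages, 3 became 0 with median or no scaling and 8 with array weights (0 to 4). For ES cells minus C3H-10T1/2, 1 became 0 with median scaling, no scaling, background subtraction or only the compared groups (0 to 1), and without scaling Rpl15 turned to 0.18. For 3T3-F442A adipocytes minus preadipocyte lines, 0 became 2 with array weights. For liver minus tibialis muscle, 0 became 9 lower without scaling, when the median of all spots moved to -1.53. The other comparisons kept 0 calls with each sample left out. The share of all spots called under these other settings is not given, here or above. Whether the members or all spots gained or lost calls can therefore not be told. The cause of these changes was not tested.

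With the replicate number as a block, 0 became 5 for stroma-vascular cells minus adipocytes, and the count for ES cells minus C3H-10T1/2 stayed at 1. Each block fit held only the compared groups, so these counts differ from the main fit in more than pairing. The other groups did not meet the rule for pairing, which asks for 3 pairs. Tibialis muscle and myotubes, with 2 pairs, correlated at 0.101. In the other groups the block gave 7 for adipocytes minus 3T3-F442A adipocytes, 6 for tibialis muscle minus myotubes and 0 for the rest. The share of all spots called by the block in these other groups is not given, so these counts cannot be set against it. For tibialis muscle minus myotubes every gene had the same SE in the block fit, 0.184, so these calls rest on a spread pooled over spots. For liver and tibialis muscle, deviations of same-numbered samples correlated at -0.111, and with the numbers crossed 0 genes were called.

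Each gene has 1 spot, so averaging several spots of a gene could not be applied. Leaving out 1 of 2 samples assumes that the other varies like the rest. Leaving out whole groups, crossed numbers and the settings for the order of groups were chosen after seeing the data. No detection calls or background values accompany the intensities, so whether low values, such as Rpl19 in tissues, are above background cannot be said.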

Other observations

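In ES cells grown without LIF, whose arrays differ in kind, the 9 genes lay between 16.10 and 17.45. Rpl15 read 16.84, 17.32 and 17.45 there, and Rps3 17.15, 17.01 and 16.47. Rpl36 was at 17.11, 17.17 and 17.03, inside its range in the low-density lines. The same held for Rpl10l, Rpl22, Rpl27a and Rpl34, whereas Rpl15, Rpl19, Rpl30 and Rps3 reached below their ranges in the lines.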
